A study of Mus musculus with 28 samples.

Results

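The LIM-homeobox family was followed through 28 fractions of the mouse brain, to ask in which fraction of each sectioning plane each member was highest. The 10 members were Lhx1, Lhx2, Lhx5, Lhx6, Lhx8, Lhx9, Isl1, Isl2, Lmx1a and Lmx1b, of 20660 gene symbols that could be named on the array, and they were taken by name and not by their values. The mice were C57BL/6J males at 3 weeks of age, each brain was cut along 1 body axis, and every fraction was hybridised to 1 array. Mouse 1 gave 12 coronal, mouse 2 gave 6 horizontal and mouse 3 gave 10 sagittal fractions, so mouse and plane cannot be told apart and no position has a replicate. No allele or treatment is named in the labels for any of the groups, and the label of coronal fraction 12 names a following fraction as well. A level is the log2 processed signal of a probe minus the 75th percentile of its array, and levels are compared between fractions for 1 probe, never between probes. A probe is called detected where the scanner software flagged it as well above background. Tissue mixtures are measured here, so fewer cells of a type and less RNA per cell cannot be told apart.

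LIM-homeodomain proteins bind DNA through a homeodomain and bind partner proteins through a pair of LIM zinc-finger domains. The partner shared by the family is the adaptor Ldb1, which joins LIM-homeodomain proteins into larger complexes, and LIM-only proteins compete for the same adaptor. In the embryo the family assigns neuron identity: Isl1 and Lhx8 in cholinergic neurons of the basal forebrain, Lhx1 and Lhx5 in Purkinje cells, Lhx2 in the cerebral cortex, Lhx6 in forebrain interneurons, Lhx9 in thalamic and midbrain neurons, Lmx1a and Lmx1b in midbrain dopamine neurons, with Lmx1b also in serotonin neurons, and Isl2 in motor neurons. The juvenile brain measured here is long past that stage, and many of these genes stay on in the mature cells.

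The fractions were placed by marker genes of known regions. In the coronal series the mean of 4 hindbrain markers was highest in fraction 1, of 5 Purkinje cell and 4 cerebellar granule cell markers in fraction 2, of 5 serotonin neuron markers in fraction 4, of 5 dopamine neuron markers in fraction 5, of 6 thalamic markers in fraction 6, of 6 striatal markers in fraction 8, of 6 cortical markers in fraction 9 and of 5 olfactory bulb markers in fraction 12. Coronal fraction 1 thus held hindbrain and fraction 12 olfactory bulb. Cortical markers were highest in horizontal fraction 1 and sagittal fraction 10, and hypothalamic markers in horizontal fraction 6 and sagittal fraction 5. Between 24822 and 34240 probes were detected on an array, and the signal at the 75th percentile ran from 135 in sagittal fraction 1 to 574 in coronal fraction 4. A level over 1 log2 above both neighbouring fractions was found for 14.9% of the probes tested in sagittal fraction 9, and a level over 1 log2 above its only neighbour for 19.2% in horizontal fraction 6, 13.1% in sagittal fraction 1, 11.2% in sagittal fraction 10 and 10.6% in horizontal fraction 1. In all other fractions this share was at most 3.81%.

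The members reached their highest level in different fractions, for some of them by a small lead. In the coronal series Lhx1 and Lhx5 were highest in fraction 2, Lmx1a in fraction 3, Lhx9 in fraction 4, Lmx1b in fraction 5, Lhx6 in fraction 6, Lhx8 and Isl1 in fraction 8 and Lhx2 in fraction 10. These fractions and the detection counts below are those of the brightest probe of each gene. The second probes of Lhx6 and Lmx1b were highest in coronal fractions 8 and 11. By the brightest probe, the lead over the second highest coronal fraction was 0.01 log2 for Lhx2, 0.07 for Lhx6 and 0.08 for Lhx1. It was 0.10 for Lmx1b, 0.13 for Lmx1a and 0.15 for Isl1. With 1 array per position, leads this small do not fix the order. For Lhx5, Lhx9 and Lhx8 the lead was 0.44, 0.54 and 0.64 log2. Isl2 was detected in 2 of the 28 fractions, Isl1 in 15, Lmx1a in 16, Lhx8 in 17, Lhx1 and Lhx9 in 22 each, Lhx5 in 23, Lmx1b in 27, and Lhx2 and Lhx6 in all 28. Coronal fraction 6 held the most members of that series, 9 of 10 with Isl2 missing, and coronal fraction 11 the fewest, with 2, Lhx2 and Lhx6. In horizontal fraction 1 and sagittal fraction 1, the outermost cuts in which Lhx2 was highest, 4 members were detected (Lhx1, Lhx2, Lhx6 and Lmx1b). Of all 55681 probes, 30041 were detected in coronal fraction 6, 24822 in coronal fraction 11, 29179 in horizontal fraction 1 and 28099 in sagittal fraction 1. Detection is a threshold on signal: sagittal fraction 1 had the lowest array signal, and coronal fraction 11 had the fewest detected probes of the 28 arrays. Lmx1b was undetected at -3.09 and Lhx5 at -3.34 in coronal fraction 11, while in fraction 12 they were detected at -3.27 and -3.31.

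**Figure D1:**
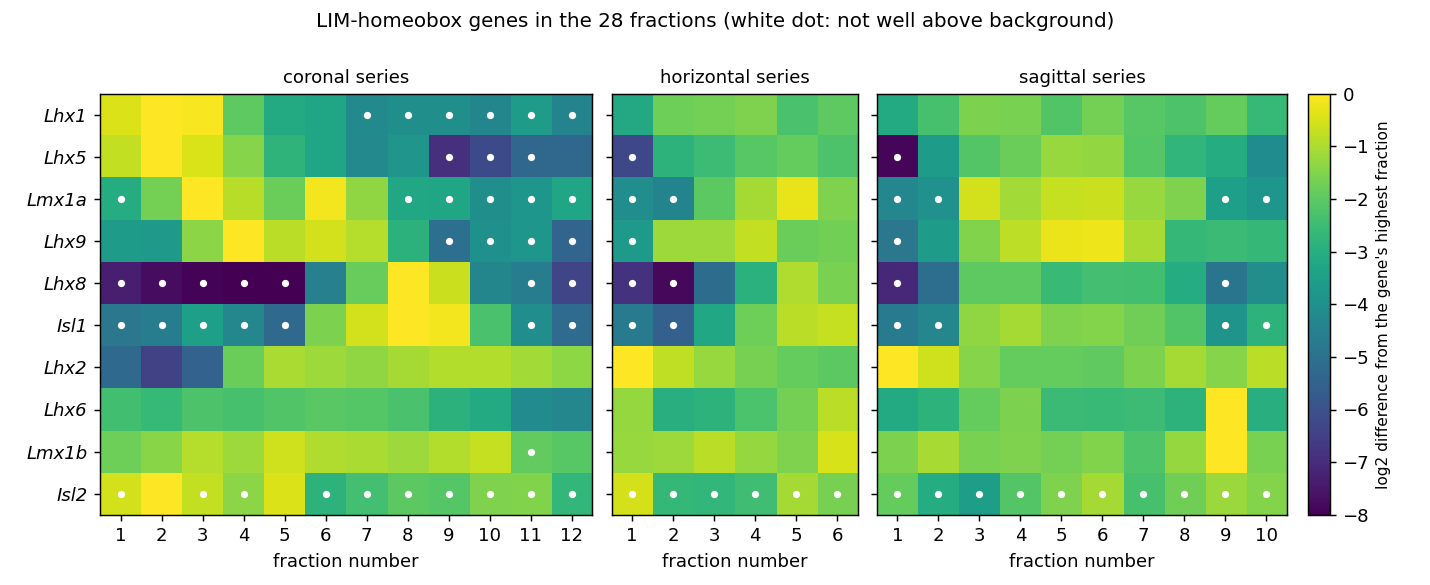
Levels of the 10 members (rows, the brightest probe of each) in the 28 fractions (columns, by series), as the log2 difference from the highest fraction of that gene. White dots mark fractions in which the probe was not well above background; the bright cells move from coronal fraction 2 (Lhx1 and Lhx5) to fraction 8 (Lhx8 and Isl1), and Lhx6 and Lmx1b are brightest in sagittal fraction 9.

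A position trend, a smooth curve of level over fraction number that explained the values beyond their scatter around it, was tested with limma in each series over 32364 probes. In the coronal series 9 of the 9 members that could be tested passed at an adjusted p of 0.05, where 33.7% of all probes passed. In the horizontal series 4 of 9 passed (Lhx2, Lhx5, Lhx8 and Isl1) beside 15.8% of all probes, and in the sagittal series 6 of 9 (Lhx2, Lhx5, Lhx8, Lhx9, Isl1 and Lmx1a) beside 14.7%. Isl2 was not tested because it was detected in no horizontal or sagittal fraction. The median fitted range, highest minus lowest point of the curve, over the 9 members was 4.70 log2 in the coronal, 2.46 in the horizontal and 3.97 in the sagittal series, beside 0.90, 0.74 and 1.06 over all probes tested. A fitted range also uses the values of undetected fractions, which 7 of the 9 members had in the coronal series and 5 in each of the others, so for these members it is no measured difference. With normexp background correction the medians were 2.41, 1.45 and 1.22 log2, beside 0.62, 0.59 and 0.92 over all probes, and the sagittal range of Isl1 went from 3.97 to 0.26. The scatter around the curve holds sharp anatomy as well as error, and it is the only error this design gives.

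These calls rest on few arrays. Coronal fractions 1 and 2, 3 to 10, and 11 and 12 lay on 3 slides. With the slide as an added term 0.745% of all probes and 2 members passed in the coronal series, Lhx5 (adjusted p = 0.0493) and Lhx8 (adjusted p = 0.0261). Within the slide of fractions 3 to 10 alone 12.9% of all probes and 7 of 9 members passed, without Lmx1a and Lmx1b. In the sagittal series no member passed without fraction 1 or within the larger slide (fractions 5 to 10), and neither fit called any probe, with 5955 and 2330 of 32364 at an unadjusted p under 0.05. Without sagittal fraction 10 all 9 members passed, in a fit that called 47.1% of all probes. The sagittal call of Isl1 was lost with the array median, quantile normalization, normexp background correction and the slide as a term, that of Lhx2 with the array median, that of Lhx8 with quantile normalization and normexp, and those of Lhx9 and Lmx1a with normexp. These 4 fits called 1.04%, 8.13%, 44.2% and 7.79% of all probes. Among the horizontal fractions no member and no other probe passed without fraction 3 or without fraction 4, with 10053 and 7679 probes at an unadjusted p under 0.05.

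Lhx8 and Isl1 were detected in the same coronal and horizontal fractions, and in the sagittal series Lhx8 was detected in fractions 2 and 10 as well, where Isl1 was not. The promoters of Lhx8, of its neighbour AI606473 and of Isl1 are shown because AI606473 and Isl1 were the profiles most like Lhx8, and because the start of AI606473, a non-coding RNA gene, lies back to back with that of Lhx8. They are 5′ to 3′ on the strand of the gene, from 250 bases before its start to 50 after it, from RefSeq on GRCm38.p6, with CpG dinucleotides in capitals.
Lhx8, chr3:154330511-154330810, minus strand: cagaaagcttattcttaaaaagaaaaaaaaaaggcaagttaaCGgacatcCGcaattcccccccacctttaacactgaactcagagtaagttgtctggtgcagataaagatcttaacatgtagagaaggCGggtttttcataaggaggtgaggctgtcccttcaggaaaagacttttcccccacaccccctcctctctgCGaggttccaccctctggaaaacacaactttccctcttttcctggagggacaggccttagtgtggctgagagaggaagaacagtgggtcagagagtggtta
AI606473, chr3:154330571-154330870, plus strand: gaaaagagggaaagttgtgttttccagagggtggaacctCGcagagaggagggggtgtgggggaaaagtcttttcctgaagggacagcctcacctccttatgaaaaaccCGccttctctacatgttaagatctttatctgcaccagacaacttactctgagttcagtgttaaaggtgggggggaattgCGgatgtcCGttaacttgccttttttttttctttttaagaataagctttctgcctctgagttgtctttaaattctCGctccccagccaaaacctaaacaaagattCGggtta
Isl1, chr13:116309639-116309938, minus strand: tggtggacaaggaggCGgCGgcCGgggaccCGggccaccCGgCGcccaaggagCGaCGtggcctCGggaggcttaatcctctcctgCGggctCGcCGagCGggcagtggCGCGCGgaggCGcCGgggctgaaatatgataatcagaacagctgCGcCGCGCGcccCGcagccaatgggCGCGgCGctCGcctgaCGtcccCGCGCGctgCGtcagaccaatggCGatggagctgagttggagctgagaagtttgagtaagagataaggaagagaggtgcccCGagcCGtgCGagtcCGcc
The start sites of Lhx8 and AI606473 were 261 bases apart on opposite strands, and 240 of the 300 bases of their windows are the same DNA read in opposite directions. The Lhx8 window held 4 CpG and the AI606473 window 6, while the Isl1 window held 37, beside a median of 7 over 32851 windows of this length. The letters TAAT, the core that homeodomains bind, occurred on either strand in none of the Lhx8 and AI606473 windows and 2 times in that of Isl1, and in 58% of all windows. No promoter window of a member, 12 windows for 9 genes, held the longer TAATTA, which 5.29% of all windows hold and which contains TAAT. A match or its absence says only what letters the window holds.

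Lhx8, needed in the embryo for cholinergic neurons of the basal forebrain, had a coronal trend (adjusted p = 0.000648) with a fitted range of 7.34 log2, and 3.60 with normexp. It was undetected in coronal fractions 1 to 5, rose through -3.13 in fraction 6 and -0.48 in fraction 7 to 1.39 in fraction 8, and came down through 0.74 in fraction 9 to -2.94 in fraction 10. Fraction 8 was at least 71.7-fold above fraction 5, against the lowest detectable signal there. Of the horizontal fractions, 1 and 2 were undetected and it was highest in fraction 5 at 0.44 (adjusted p = 0.0454), at least 33.7-fold above fraction 2. In the sagittal series fractions 3 and 4 shared the highest level, -0.58, followed in this order by fraction 6, fraction 7 at -1.03 and fraction 5 at -1.20, while fractions 1 and 9 were undetected (adjusted p = 0.0135). Toward the sagittal edges it was detected at -3.72 in fraction 2 and -2.67 in fraction 10.

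Isl1, a factor of cholinergic, striatal, hypothalamic and motor neurons, followed a like course. It was detected in coronal fractions 6 to 10 only, at -2.56, -1.55, -0.99, -1.14 and -3.28, and fraction 8 was at least 13.8-fold above fraction 5 (fitted range 5.56 log2, or 2.04 with normexp, adjusted p = 0.00224). Horizontal fractions 1 and 2 were undetected, and it reached -1.83 in fraction 5 and -1.69 in fraction 6 (adjusted p = 0.0393). In the sagittal series it was detected in fractions 3 to 8, between -3.15 and -2.07, with fraction 4 highest (adjusted p = 0.0263), and the trend did not pass without fraction 1, 4, 5 or 6. Isl1 was printed as 10 spots on each array, and over the 15 arrays that detected it the SD of these spots was 0.097 log2 at the median and 0.392 at most. On the arrays of coronal fractions 8 and 9, whose levels were 0.15 apart, it was 0.048 and 0.106, and spots of 1 array do not show how well a fraction would repeat. The coronal trend of Isl1 gave an adjusted p of 0.107 with the slide as a term and 0.026 within fractions 3 to 10, and the sagittal trend 0.054 with the slide as a term.

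Over the 28 fractions the Lhx8 and Isl1 profiles had a Pearson r of 0.934 and a Spearman rho of 0.933, the highest of the 45 pairs of members, whose median r was 0.126. Taken series by series, r was 0.911 in the coronal, 0.992 in the horizontal and 0.974 in the sagittal fractions. Fractions of 1 brain are neighbours in tissue and share a plane, so these values describe the profiles and carry no p. The symbols most like Lhx8 among 15559 were AI606473 (r = 0.972), Isl1 and Sfta3-ps (r = 0.905), and those most like Isl1 were Lhx8, Sfta3-ps (r = 0.922) and AI606473 (r = 0.907). AI606473 was detected in coronal fractions 7 to 9, with -2.05, -0.14 and -0.49, and was highest in horizontal fraction 5 at -0.62 and sagittal fraction 3 at -1.69. In the RefSeq table Sfta3-ps, a pseudogene, is the entry before Nkx2-1, the gene of a homeodomain factor of the ventral forebrain.

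**Figure D2:**
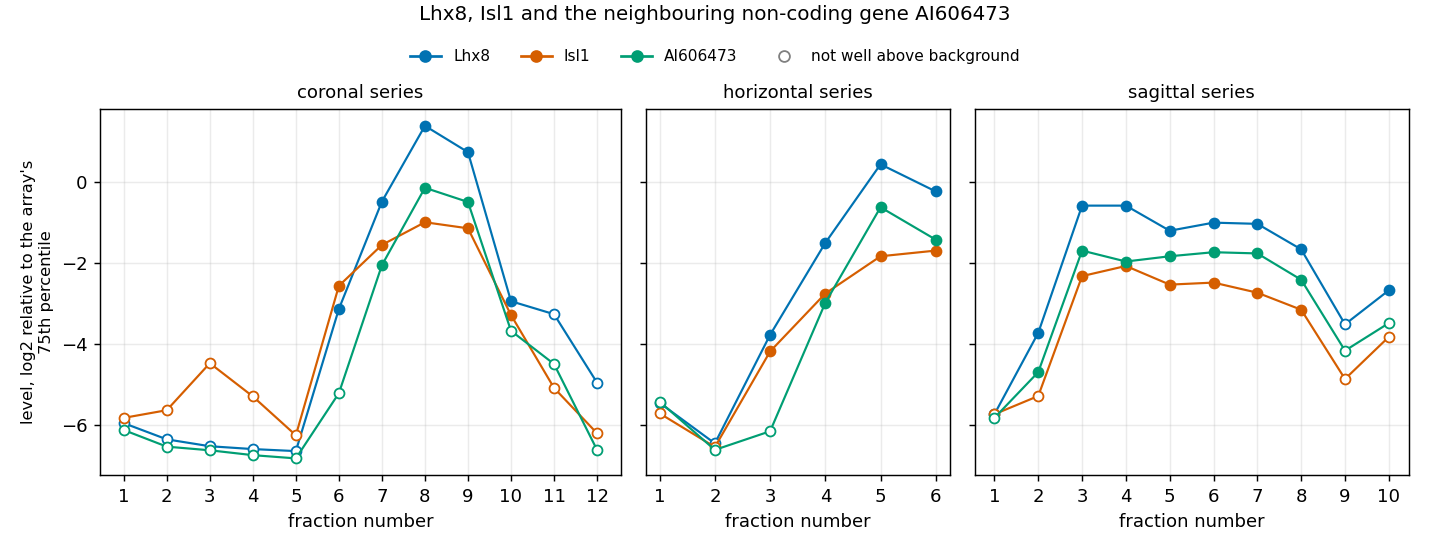
Levels of Lhx8, Isl1 and AI606473 (y axis, log2 relative to the 75th percentile of the array) by fraction number in each series; filled circles are well above background and open circles are not. All 3 are highest in coronal fraction 8, where Lhx8 is at 1.39, Isl1 at -0.99 and AI606473 at -0.14.

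Of the marker lists, that of the striatum was most like both genes over 28 fractions (mean profile r = 0.883 for Lhx8 and 0.791 for Isl1), but not in every series. In the horizontal and sagittal series the striatal list had r = 0.815 and 0.671 with Lhx8 and 0.830 and 0.564 with Isl1. The mean profile of 4 cholinergic genes (Chat, Slc18a3, Slc5a7 and Ngfr) had r = 0.976 and 0.960 with Lhx8 there and 0.947 and 0.945 with Isl1, and 0.142 and 0.374 with Lhx8 and Isl1 in the coronal series. In the coronal series Chat, the acetylcholine-synthesising enzyme, was highest in fraction 3 at 1.32 and Slc18a3, the vesicular acetylcholine transporter, in fraction 2 at 2.25, both of them fractions without detected Lhx8 or Isl1. Ngfr, the low-affinity neurotrophin receptor, was highest in fraction 8 at 0.65, as was Slc5a7, the choline transporter, at 0.23. These cholinergic genes thus differed in where they were highest, and Chat and Slc18a3 were highest where no Lhx8 was detected.

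Isl2, the close relative of Isl1 in motor neurons, was near the limit of detection. It was detected in coronal fractions 2 (-3.88) and 5 (-4.30) and in no other fraction, and fraction 2 was at least 1.84-fold above fraction 6. The Isl1 and Isl2 profiles had r = -0.294 over 28 fractions, in none of which both were detected. The mean profile of 3 motor neuron markers, highest in coronal fraction 2, was the list most like Isl2 (r = 0.552 over all 28 fractions, most of them undetected for Isl2).

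In the coronal series Lhx1 and Lhx5 were highest at the back of the brain, in fraction 2, as were the cerebellar markers. In the horizontal series the Purkinje and granule cell lists were highest in fractions 2 and 3, Lhx1 in fraction 4 and Lhx5 in fraction 5. In the sagittal series both lists and Lhx1 were highest in fraction 3, and Lhx5 in fraction 5. Lhx5 stood at 1.27, 2.00 and 1.56 in coronal fractions 1 to 3, fell to 0.54 in fraction 4 and -0.80 in fraction 5, and was undetected in fractions 9 to 11. Fraction 2 was at least 67.0-fold above fraction 9 (fitted range 5.57 log2, or 3.85 with normexp, adjusted p = 0.000467). In the sagittal series Lhx5 was highest in the middle, 0.75 in fraction 5 and 0.70 in fraction 6, and undetected in fraction 1 (adjusted p = 0.00953). Horizontally it was undetected in fraction 1 and ran from -0.84 in fraction 2 to 0.10 in fraction 5 (adjusted p = 0.0355). Of the fits that left out 1 horizontal fraction, only that without fraction 2 passed (adjusted p = 0.023). Without the undetected fraction 1 the fitted range went from 4.06 to 0.87 log2 (adjusted p = 0.149). No promoter window of Lhx5 was used here.

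Lhx1, its closest relative and like it a gene of Purkinje cells, stood at -0.55, -0.13 and -0.21 in coronal fractions 1 to 3, -2.12 in fraction 4, and was undetected from fraction 7 on. Fraction 2 was at least 21.1-fold above fraction 12 (adjusted p = 0.000789). Unlike Lhx5 it was detected in every horizontal and sagittal fraction, and its trends there did not pass (adjusted p = 0.154 and 0.142), with the lowest level in the outermost fraction of each (-3.29 in horizontal and -3.24 in sagittal fraction 1). Its highest horizontal and sagittal fractions, 4 at -1.68 and 3 at -1.72, led the next by 0.10 and 0.02 only. Whether the 2 genes differ in trend between planes was not tested.

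The Lhx1 and Lhx5 profiles had r = 0.813 (rho = 0.831), and series by series 0.909 (coronal), 0.838 (horizontal) and 0.852 (sagittal), the most alike of the 5 pairs of close relatives. Lhx1 was most like the Purkinje and granule cell lists (r = 0.906 and 0.904), and so was Lhx5 (r = 0.857 and 0.836). Both lists were highest in coronal fraction 2, so the coronal profiles do not tell the cell types apart. The list of motor neuron markers was highest there too, with a coronal r of 0.956 for Lhx1 and 0.889 for Lhx5. Beside this the coronal r of the Purkinje and granule cell lists was 0.971 and 0.974 for Lhx1 and 0.876 and 0.889 for Lhx5. The symbols most like Lhx1 were Krt28 (r = 0.954), the sodium channel gene Scn11a (r = 0.928) and Hes3, a transcriptional repressor (r = 0.924). Those most like Lhx5 were Mreg (r = 0.943), the transcription factor Ebf1 (r = 0.927) and the glutamate receptor subunit Grin3b (r = 0.925). In the horizontal series r with the Purkinje and granule cell lists was 0.905 and 0.893 for Lhx1 and 0.739 and 0.780 for Lhx5.

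Lhx2, a factor of cortical progenitors and neurons, had the opposite course. It was detected in all 28 fractions, at -0.62, -1.80 and -0.83 in coronal fractions 1 to 3 and between 2.86 and 3.74 in fractions 4 to 12. Fraction 10 was 46.8-fold above fraction 2 (fitted range 5.70 log2, adjusted p = 0.00326), but 9 fractions lay within 1 log2 of the highest, so the profile was a step between fractions 3 and 4 and then a plateau, and the order on the plateau rests on small gaps (3.74 in fraction 10 and 3.73 in fraction 9). When levels were set against the median of each array, the highest fraction on this plateau was fraction 5. With the slide as a term the adjusted p was 0.337, and within fractions 3 to 10 it was 0.0288.

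In the horizontal series Lhx2 came down without exception from 4.63 in fraction 1 to 2.64 in fraction 6 (3.98-fold, adjusted p = 0.0182), and it also passed without fraction 2, 5 or 6 and not without fraction 1, 3 or 4. In the sagittal series it was highest in fractions 1 (4.65) and 2 (4.06), followed by fraction 10 (3.81). It was lowest in the middle, 2.69 in fraction 6 (adjusted p = 0.0115, and 0.312 with the array median). In sagittal fractions 1 and 10, 13.1% and 11.2% of all probes tested stood over 1 log2 above their only neighbour. The part of that rise in the Lhx2 values was not tested. The cortical list was the most alike (r = 0.914), and Emx1, a homeobox gene of the cortex and a member of that list, was the second most alike of all symbols (r = 0.984) after Cort, the neuropeptide cortistatin (r = 0.986), and before Ddn, the dendritic protein dendrin (r = 0.980). Against Lhx1 and Lhx5 the profile of Lhx2 had r = -0.723 and -0.692, the 2 lowest values among the 45 pairs of members.

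**Figure D3:**
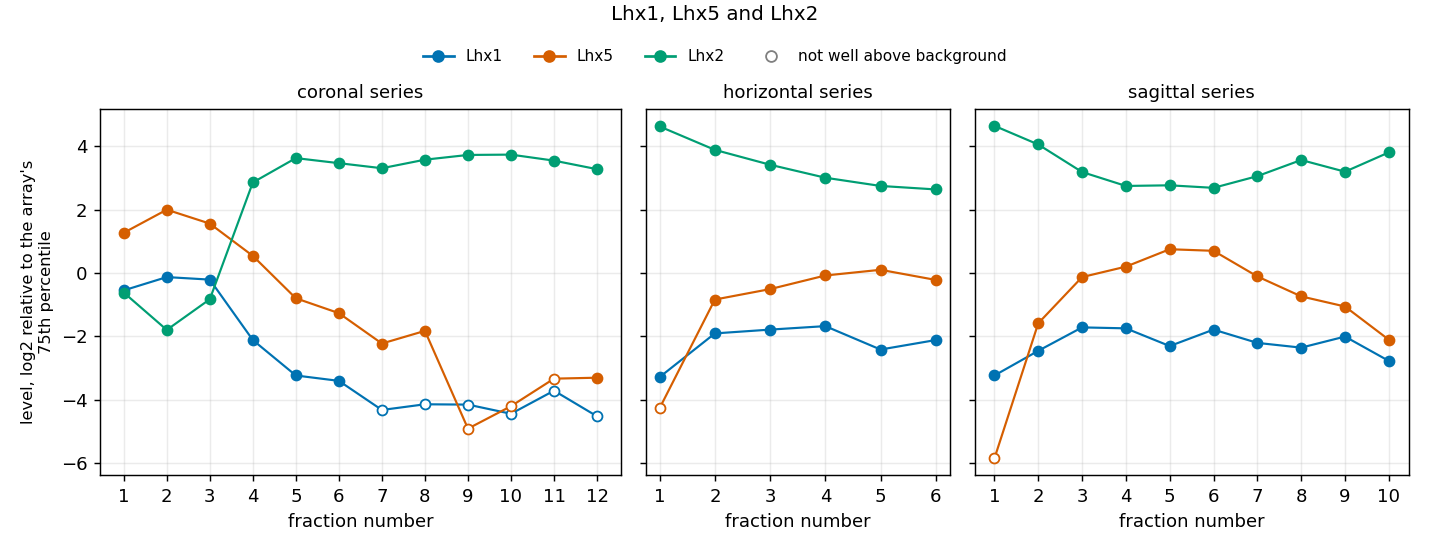
Levels of Lhx1, Lhx5 and Lhx2 (y axis, log2 relative to the 75th percentile of the array) by fraction number; open circles are not well above background. Lhx1 and Lhx5 fall from coronal fraction 2 forward while Lhx2 steps up from -0.83 in fraction 3 to 2.86 in fraction 4, and in the sagittal series Lhx2 is lowest in fraction 6, beside the highest fractions of Lhx5.

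Lhx9, in sequence the nearest relative of Lhx2, did not follow it. It was highest in coronal fraction 4 at 0.07, held -0.76, -0.47 and -0.81 in fractions 5 to 7, and was undetected from fraction 9 on, where Lhx2 was on its plateau. Fraction 4 was at least 25-fold above fraction 12 (fitted range 4.70 log2, or 2.15 with normexp, adjusted p = 0.00274). In the sagittal series it was highest in the middle, -0.18 in fraction 5 and -0.14 in fraction 6, and undetected in fraction 1 (adjusted p = 0.00953). The horizontal trend did not pass (adjusted p = 0.096), with the highest level in fraction 4 at -0.67. Lhx2 and Lhx9 had r = -0.057 over 28 fractions, 0.037 within the coronal, -0.624 within the horizontal and -0.966 within the sagittal series.

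The array carried 3 probes for Lhx9, and the 2 that were tested had r = 0.916 with each other. The second probe was also highest in coronal fraction 4, at -1.45, and passed in the coronal series (adjusted p = 0.0154) as well as in the sagittal (adjusted p = 0.0178). Its highest horizontal and sagittal fractions were 3 (-2.27) and 5 (-0.94), where those of the brightest probe were 4 and 6. Closest to Lhx9 were the homeobox gene Shox2 (r = 0.879), the zinc-finger factor Gata3 (r = 0.827) and Slc17a6, the vesicular glutamate transporter of thalamus and brainstem (r = 0.804). Gata3 was highest in coronal fraction 4 at 0.23, the same fraction as Lhx9. Among the lists the mammillary and subthalamic markers came first (r = 0.703), followed by the hippocampal (r = 0.642) and thalamic ones (r = 0.624).

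Lmx1a, which specifies dopamine neurons of the midbrain and the roof plate that gives rise to choroid plexus, had 2 high coronal fractions. It was at -1.47 in fraction 3 and -1.60 in fraction 6, with -2.34 and -3.28 in fractions 4 and 5 between them, and it was undetected in fraction 1 and from fraction 8 on. The test passed (fitted range 3.23 log2, adjusted p = 0.00733; with normexp the range was 0.86 and the test did not pass), but the smooth curve placed 1 high point at fraction 4, between the observed ones. With the array median fraction 6 was the higher. In the horizontal series it was highest in fraction 5 at -1.74, 0.82 above fraction 4 (adjusted p = 0.0671), and in the sagittal series it was detected in fractions 3 to 8, between -3.03 and -2.01 (adjusted p = 0.0148).

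The choroid plexus list was the most like Lmx1a over 28 fractions (r = 0.748) and in the coronal series (r = 0.730). Its genes Ttr, the transthyretin of choroid plexus, and Otx2, a homeobox factor, were likewise highest in coronal fraction 3 (8.27 and 2.43). In the other series it was not the most alike. Its horizontal r was 0.853, beside 0.948 for the striatal list, and its sagittal r 0.724, beside 0.901 for the cholinergic list. The thalamic and mammillary lists (r = 0.666 and 0.596 over 28 fractions) were highest in coronal fraction 6, the other high fraction of Lmx1a. The dopamine list had r = 0.489 with Lmx1a over 28 fractions, 0.035 in the coronal, 0.911 in the horizontal and 0.656 in the sagittal series. Its 5 tested genes had different highest coronal fractions: 5 for Slc6a3, the dopamine transporter, and for Pitx3, 4 for Slc18a2, 9 for Nr4a2 and 12 for Th, the enzyme that makes the dopamine precursor. In fraction 5 Slc6a3 was at its highest coronal level (3.73) and Lmx1a at the lowest of its detected coronal levels (-3.28). Lhx9 and Lmx1a had r = 0.723 with each other, and Lhx5 and Lmx1a 0.690. Closest to Lmx1a were Pcolce2 (r = 0.867), Slc26a11 (r = 0.850) and Dydc2 (r = 0.850).

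**Figure D4:**
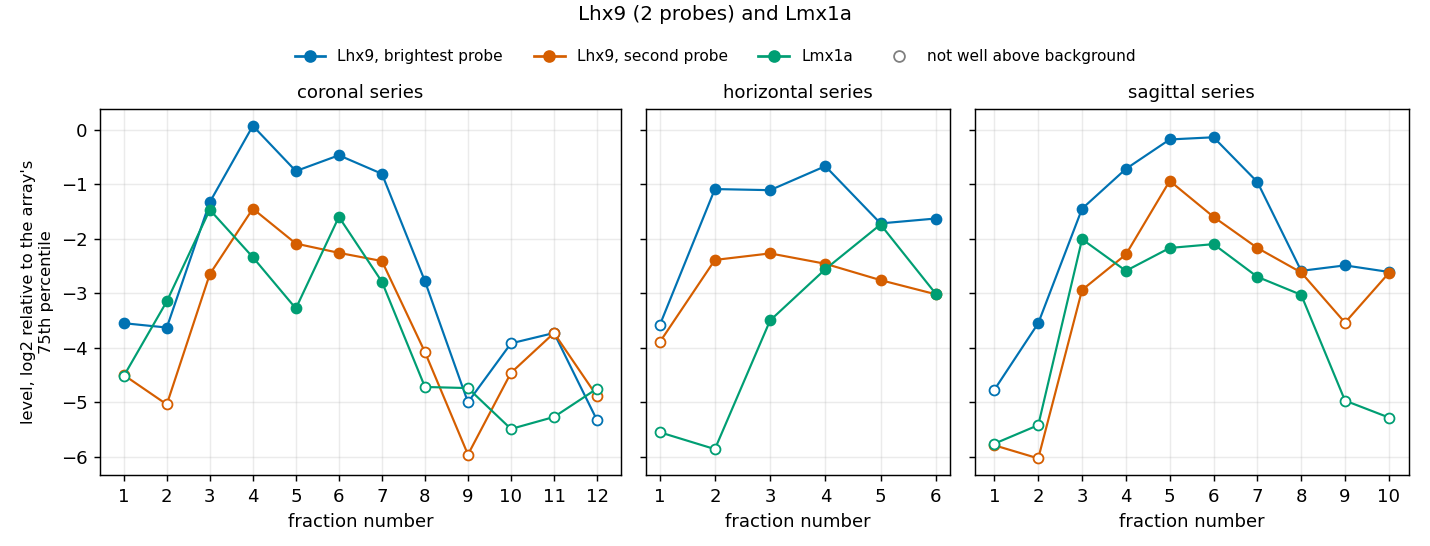
Levels of Lhx9 by its 2 tested probes and of Lmx1a (y axis, log2 relative to the 75th percentile of the array) by fraction number; open circles are not well above background. Both Lhx9 probes are highest in coronal fraction 4, and Lmx1a has separate high points in coronal fractions 3 (-1.47) and 6 (-1.60).

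For Lmx1b, the factor of dopamine and serotonin neurons, the profile of the brightest probe varied little in the coronal series. This probe lay between -3.27 and -1.76 there, with fraction 5 highest, 9 of 12 fractions within 1 log2 of it and an adjusted p of 0.0468. That call was lost in 10 of the 12 fits that left out 1 fraction (all but those without fraction 8 or 10), with quantile normalization, with normexp background correction and with the slide as a term. In the horizontal and sagittal series the trends did not pass (adjusted p = 0.721 and 0.773), and the highest levels fell in horizontal fraction 6 (-1.68) and sagittal fraction 9 (-1.18), 2 of the fractions in which many probes stood above their neighbours. The part of that rise in the Lmx1b values was not tested. The second probe of Lmx1b was highest in coronal fraction 11 (-1.52) and sagittal fraction 1 (-1.91), unlike the brightest, and in horizontal fraction 6 (-2.16), like it. The gaps were small, with -1.55 in coronal fraction 10 and -1.95 in sagittal fraction 9 by the second probe. Coronal fraction 10 was the second highest by the brightest probe too, at -1.87. It passed in the sagittal series (fitted range 1.66 log2, adjusted p = 0.0421) and not in the coronal or horizontal series (adjusted p = 0.574 and 0.293). Its r with the brightest was 0.422 over 28 fractions, and 0.071 in the coronal, 0.841 in the horizontal and 0.595 in the sagittal series. Lmx1a and Lmx1b had r = -0.060, and with the second Lmx1b probe -0.52. The serotonin list had r = 0.118 with Lmx1b. The symbols most like Lmx1b, Spata32 (r = 0.833), Gm19668 (r = 0.831) and Slc22a13 (r = 0.825), were detected in all 28 fractions.

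For Lhx6, the factor of interneurons born in the medial ganglionic eminence, the answer depended on the probe. Both tested probes are annotated to the same transcript record. Whether the brightest probe measures Lhx6 was not tested, since that needs the probe sequences. The brightest probe was detected in all 28 fractions, lay between 5.10 and 5.70 in coronal fractions 1 to 8 and came down to 3.44 in fraction 12 (fitted range 2.37 log2, adjusted p = 0.000308). It was highest in horizontal fraction 6 (6.93), horizontal fraction 1 (6.48) and sagittal fraction 9 (7.75), where it stood 2.83 log2 above the higher neighbour. These are 3 of the fractions in which over 10% of all probes tested stood over 1 log2 above their neighbours, and the part of that rise in the Lhx6 values was not tested. Its horizontal and sagittal trends did not pass (adjusted p = 0.068 and 0.783).

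The second probe of Lhx6 was undetected in coronal fractions 1 to 3, 11 and 12 and highest in fractions 8 (-0.07) and 9 (-0.12), at least 23.3-fold above fraction 3 (fitted range 6.25 log2, adjusted p = 0.00382). It did not stand out in sagittal fraction 9, which at -2.29 was its lowest sagittal fraction, and was highest in sagittal fraction 3 at -0.94 and horizontal fraction 5 at -1.23, where neither trend passed (adjusted p = 0.134 and 0.493). The third probe, annotated to another Lhx6 transcript, was detected in sagittal fractions 5 and 6 only. The 2 tested probes had r = 0.234 with each other, beside a median of 0.655 over 4076 symbols with at least 2 tested probes, of which 19.9% had a lower r.

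The symbols most like the brightest Lhx6 probe were Oacyl (r = 0.989), Oprm1, the mu opioid receptor (r = 0.986), and Krt222 (r = 0.985), and the highest r of a marker list with it was 0.393 (mammillary and subthalamic markers). Closest to the second probe were Enc1 (r = 0.947), Mn1 (r = 0.930) and Crym (r = 0.927), and the cortical list had r = 0.898 with it. These values followed the coronal series: r there was 0.992 for Enc1, 0.953 for Mn1, 0.948 for Crym and 0.955 for the cortical list, but -0.012, -0.125, 0.300 and -0.251 in the horizontal and 0.724, 0.578, 0.232 and 0.508 in the sagittal series. The 5 tested markers of forebrain interneurons had no common highest coronal fraction: it was fraction 7 for Sst, 2 for Pvalb, 5 for Sox6 and 12 for Npy and Gad1. Lhx6 and Lhx8, relatives that are both on in the medial ganglionic eminence of the embryo, had r = 0.199 by the brightest probe of Lhx6 and 0.58 by the second, and 0.47 over the 17 fractions in which Lhx8 and the brightest Lhx6 probe were both detected.

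**Figure D5:**
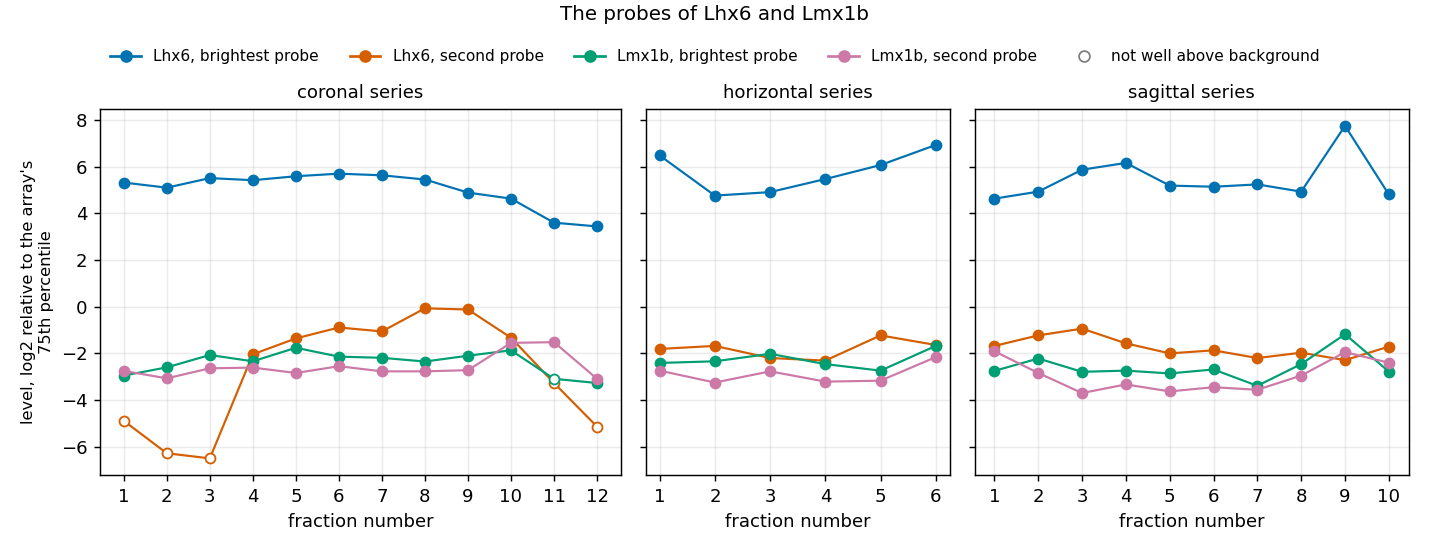
Levels of the 2 tested probes of Lhx6 and of Lmx1b (y axis, log2 relative to the 75th percentile of the array) by fraction number; open circles are not well above background, and levels of different probes are not to be compared with each other. The brightest Lhx6 probe is at 7.75 in sagittal fraction 9, its highest there, and the second at -2.29, its lowest, and in the coronal series the second probe alone is undetected in fractions 1 to 3.

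The mirror fractions of the sagittal series give a measure of how well a level repeats on the other side of the same brain. Fractions 1 and 10, 2 and 9, and so on to 5 and 6 were taken as pairs, and the SD within pairs was computed over the pairs detected on both sides. It was 0.36 log2 for Lhx1, 0.41 for Lhx2 and Lmx1b and 0.99 for Lhx6 over 5 pairs, 0.31 for Lhx5 and 0.56 for Lhx9 over 4 pairs, and 0.42 for Lmx1a, 0.43 for Isl1 and 0.49 for Lhx8 over 3 pairs, beside a median of 0.34 over 30220 probes. In fraction 1 Lhx5, Lhx8 and Lhx9 were undetected, and fraction 10 was at least 1.75, 1.18 and 1.24 log2 above it, while Isl1 was detected in neither. In the innermost pair the widest gap was that of Lhx1, -0.52 log2 for fraction 5 minus fraction 6. The pairs assume that the cuts lie evenly about the midline, and the slides differ between fractions 1 to 4 and 5 to 10, so side and slide cannot be told apart for 4 of the 5 pairs.

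The other LIM-homeobox genes of the mouse, Lhx3 and Lhx4, are factors of motor neurons and pituitary. Lhx3 was highest in coronal fraction 2 at -1.09, undetected from fraction 8 on, and passed in the coronal series (adjusted p = 0.00121). Lhx4 was detected in coronal fractions 1 to 5, with fraction 5 highest at -2.54, and passed there too (adjusted p = 0.0279). Neither passed in the horizontal or sagittal series. The symbols most like the dim Isl2 profile were Mab21l2 (r = 0.737) and Lhx4 (r = 0.736).

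All 10 cofactors (the adaptors Ldb1 and Ldb2, their partners Ssbp2, Ssbp3 and Ssbp4, the LIM-only genes Lmo1 to Lmo4 and Rlim, the ubiquitin ligase of the adaptor) were detected in every coronal and horizontal fraction, and 9 of them in all 10 sagittal fractions, with Rlim in 9. In the coronal series 6 passed (Ldb2, Ssbp2, Ssbp3, Ssbp4, Lmo3 and Lmo4), beside the 33.7% of all probes, with a median fitted range of 1.22 log2 over the 10. In the horizontal series 1 of 10 passed (Lmo4), beside 15.8% of all probes, and in the sagittal series 1 of 10 (Ssbp4), beside 14.7%. Ldb1, the common adaptor, ran from 1.59 to 2.31 in the coronal series and passed in none of the 3 (adjusted p = 0.0943, 0.194 and 0.722). Lmo3 was highest in coronal fraction 8 at 2.25, with -2.07 in fraction 3 (adjusted p = 0.00397), and Lmo4 in fraction 9 at 6.27 with 3.53 in fraction 2 (adjusted p = 0.00197), so these LIM-only genes were high in forward fractions. Ldb2 was highest in coronal fraction 9 at 2.43 and lowest in fraction 12 at -0.67 (adjusted p = 0.00831).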

How the data were processed

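RNA was labelled with Cy3, 1 fraction per 1-colour Agilent array, and the authors deposited background-subtracted intensity values made by Agilent Feature Extraction 10.5.1.1. For 44721 probes the authors gave log2 values too, which matched the levels computed here up to an offset per array of 0.00111 to 0.00758 (largest deviation 2.32e-06 over 44258 probes of 1 spot).

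Spots flagged as outliers were dropped, the remaining spots of a probe were averaged, and levels are log2 values of that mean less the array's 75th percentile. A probe was detected where at least 0.5 of its spots carried the flag for a signal well above background. No spot was saturated, and the median SD of repeated spots on an array was 0.0547 to 0.0795 log2; the number of arrays limits the precision. Of 55681 probes, 27235 matched a symbol of a RefSeq table (GRCm38.p6, names and gene order only). The 10 members had 15 probes, and the probe with the highest mean level was used. A fold against an undetected fraction is a lower bound, taken against the higher of the level of the probe and the lowest detected signal of that array.

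Position trends were tested with limma 3.58.1 in R 4.3.3 (F-test of a natural spline over fraction numbers, 3 degrees of freedom in the coronal and sagittal and 2 in the horizontal series) over the 32364 probes detected in at least 1 fraction of each series and with a value on every array, with Benjamini-Hochberg adjustment over all of them and a threshold of 0.05. The p-values measure scatter around a curve in 1 brain per plane. Profiles were compared with Pearson's r and with Spearman's rho, as a description. The genes that could be named were every member, the genes of the marker lists, and for each member the 3 symbols with the highest r. Most marker genes are given only as the mean of their list, and 2 genes are not reported here. The members and the lists were chosen with earlier results of these data known. The 4 cholinergic genes averaged for Lhx8 and Isl1 were chosen after their values were seen. Alternatives were the array median, quantile normalization, normexp (offset 50, run on the median foreground because the mean foreground is not used here), the log2 table of the authors, outlier spots kept, other probes, filters, 1 degree of freedom fewer, the slide as a term, the largest slide alone, and leaving out each fraction, of which all but coronal 12, horizontal 6 and sagittal 1 and 9 were chosen after seeing the data. Of the promoter windows, those of 9 members were given and that of Lhx5 was not used here.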

Additional observations from a re-analysis of the deposited data

Results flagged for a closer look

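Of 24 series of values checked (12 tested probes of members in the horizontal and sagittal series), 5 held an end value far from the others by Dixon's criterion, which chance meets in about 1 of 20 groups; fractions of a series are positions and not replicates. Lhx5 was at -4.27 in horizontal fraction 1 and at -5.86 in sagittal fraction 1, undetected in both, and Lhx9 was at -3.59 in horizontal fraction 1, undetected as well. Lhx6 by its brightest probe was at 7.75 and Lmx1b by its brightest probe at -1.18 in sagittal fraction 9, in which 14.9% of all probes tested stood over 1 log2 above both neighbours.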

How the results depend on the processing

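No paired analysis was possible because fraction numbers of different planes are different positions. The share of all probes that passed moved with the settings and stands in parentheses. The count of members with a coronal trend, 9 of 9 (33.7%), became 2 with the slide as a term (0.745%) and 2 of 2 tested among probes detected in every coronal fraction (45.2%), and was 8 to 9 when 1 fraction was left out (24.5% to 34.4%). The horizontal count, 4 of 9 (15.8%), became 7 with the array median (59.8%), 2 of 4 tested among probes detected in every fraction (22.8%) and 0 with 1 degree of freedom fewer (1 of 32364 probes), and was 0 to 4 when 1 fraction was left out: 0 without fraction 3 or 4 (no probe passed), and 1 (Lhx2) without fraction 5 (17.8%) or 6 (4.13%). The sagittal count, 6 of 9 (14.7%), became 2 with normexp (44.2%), 4 with the array median (1.04%) or quantile normalization (8.13%), 1 of 4 tested among probes detected in every fraction (25%) and 0 within the larger slide (no probe passed), and was 0 to 9 when 1 fraction was left out: 0 without fraction 1 (no probe passed), 8 without fraction 9 (38.8%) and 9 without fraction 10 (47.1%). The likeness of Lhx1 and Lhx5 moved from 0.81 to 0.86 without sagittal fractions 1 and 9 and horizontal fraction 6, and was 0.91 in the coronal and 0.85 in the sagittal series alone; that of Lhx2 and Lhx9 was -0.62 in the horizontal and -0.97 in the sagittal series; that of Lhx6 and Lhx8 was 0.50 in the horizontal series, 0.58 with the second Lhx6 probe and 0.47 where both were detected; that of Isl1 and Isl2 was 0.15 in the horizontal series; and that of Lmx1a and Lmx1b was 0.37 in the coronal series and -0.52 with the second Lmx1b probe. Of 150 highest fractions recomputed with another scaling, background correction, outlier rule or the table of the authors, 133 stayed and 17 moved. Counting those of the second tested probes of Lhx6, Lhx9 and Lmx1b too, 135 stayed and 24 moved. The median of the authors' log2 columns ran from -2.63 to -1.63, so scaling to the array median shifts arrays against each other by up to that spread. The causes of these changes were not tested.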
